A study of Rattus norvegicus with 12 samples.

Results

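The glutathione transferases and the enzymes that remove reactive oxygen were followed in the livers of 6 EtOH and 6 control rats. The genes were taken by name from the deposited table: the classes of cytosolic and kappa glutathione transferases (Gsta, Gstk, Gstm, Gsto, Gstp, Gstt), the microsomal transferases (Mgst), the glutathione peroxidases (Gpx), the peroxiredoxins (Prdx), the superoxide dismutases (Sod), every name beginning with Txn, and Gsr, Cat, Nqo1, Nqo2, Hmox1, Hmox2 and Osgin1. This rule took 59 names, of which Gstm6l, Gstt4, Txndc2 and Txndc8 were listed at 0 in all 12 livers. The remaining 55 genes, of 15270 gene names with a transcript above 0, are described here, each by its transcript with the highest mean RPKM (reads scaled to transcript length and to the mapped reads of the library). Srxn1, which the rule also names, and Gsta3, Gstt1, Gstz1 and Gpx1, which its patterns would take, are not analysed here.

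All 12 animals were females of the inbred alcohol-preferring line iP10a, bred by brother and sister mating from rats selected for high voluntary drinking. EtOH animals chose for 23 weeks between water and bottles of 10, 20 and 30% ethanol, and control animals had water only. All livers were collected at 38 weeks of age except that of EtOH animal 6, collected at 39 weeks. Both groups ate freely, and the study did not match their food intake by pair-feeding. The controls therefore carry the same selected genetic background as the EtOH animals, and the comparison is of drinking against not drinking within 1 inbred line. Each liver gave 1 poly(A) library.

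Glutathione transferases join the tripeptide glutathione to reactive foreign and endogenous molecules, which makes these more soluble and ready for export from the hepatocyte. Glutathione peroxidases and peroxiredoxins reduce peroxides, at the expense of glutathione or of thioredoxin, and glutathione reductase and the thioredoxin reductases restore both carriers with NADPH. Many of these genes are targets of the transcription factor NRF2, which binds a short DNA sequence called the antioxidant response element. Liver is among the tissues richest in these enzymes, and ethanol oxidation in hepatocytes is a known source of reactive oxygen and of acetaldehyde.

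The core of the antioxidant response element, written TGACNNNGC, was looked for on both strands of the promoter windows that RefSeq gives for GRCr8, from 250 bases before to 50 bases after the start of each gene. It was present in 4 of the 8 genes that had a window and were lower in EtOH livers by the test described further on, namely Gstp1, Txnrd1, Gsta1 and Gsta2. Their windows are shown 5′ to 3′ on the strand of the gene, with the matching letters in capitals. They lie on the minus strand at chr1:210769656-210769955 (Gstp1), chr7:22755855-22756154 (Txnrd1), chr9:31216483-31216782 (Gsta1) and chr8:88077043-88077342 (Gsta2).
Gstp1: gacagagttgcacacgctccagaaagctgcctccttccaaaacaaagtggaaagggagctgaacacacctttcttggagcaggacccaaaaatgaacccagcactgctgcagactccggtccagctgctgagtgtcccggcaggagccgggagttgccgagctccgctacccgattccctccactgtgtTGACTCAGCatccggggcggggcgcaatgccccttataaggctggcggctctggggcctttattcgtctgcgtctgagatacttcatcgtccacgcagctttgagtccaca
Txnrd1: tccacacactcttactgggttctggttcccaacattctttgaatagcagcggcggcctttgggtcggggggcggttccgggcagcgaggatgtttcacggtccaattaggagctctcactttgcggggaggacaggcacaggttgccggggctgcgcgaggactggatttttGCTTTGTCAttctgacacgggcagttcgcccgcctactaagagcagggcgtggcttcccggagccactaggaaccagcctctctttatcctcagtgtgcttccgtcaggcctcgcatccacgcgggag
Gsta1: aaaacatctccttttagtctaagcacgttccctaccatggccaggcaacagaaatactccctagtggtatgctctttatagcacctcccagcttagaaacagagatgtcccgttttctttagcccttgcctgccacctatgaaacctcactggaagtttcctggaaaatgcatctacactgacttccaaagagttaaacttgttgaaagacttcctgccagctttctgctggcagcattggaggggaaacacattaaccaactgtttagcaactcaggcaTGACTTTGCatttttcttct
Gsta2: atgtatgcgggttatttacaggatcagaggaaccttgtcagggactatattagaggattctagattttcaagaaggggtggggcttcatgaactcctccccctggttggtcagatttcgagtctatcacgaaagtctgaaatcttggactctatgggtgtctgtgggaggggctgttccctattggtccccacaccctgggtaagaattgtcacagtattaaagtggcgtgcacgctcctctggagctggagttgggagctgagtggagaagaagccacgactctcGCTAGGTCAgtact
The Gstp1 match, TGACTCAGC, began at position -61 from the gene start and its leading 7 letters are also a form of the AP-1 site TGANTCA, so a match to the former cannot be told from a match to the latter. In Txnrd1, one of whose 2 windows had a match, the letters GCTTTGTCA stood in reverse orientation from position -78. Both matches in the alpha class fell after the start, TGACTTTGC from position 30 in Gsta1 and GCTAGGTCA, in reverse orientation, from position 36 in Gsta2. Of the 37 genes with a window that were not called, 10 had a match, as did 14 of all 45 genes with a window. Of 33469 RefSeq windows of this length, 12.1% had a match. A gene was counted if any of its windows matched, while the RefSeq windows were counted singly, so the shares are of unlike units. These are matches of letters only, and binding was not measured.

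The RPKM values stood in ratios of whole reads, which gave 2610238 to 4318141 recovered reads per control liver and 3945593 to 6030028 per EtOH liver. The EtOH libraries were thus mostly the deeper ones, and the precision of a gene follows from its reads: Mgst1 rested on 42690 reads in control and 56843 in EtOH livers, and Gpx2 on 133 and 42. Hepatocyte transcripts were abundant in every library. Of the 10 hepatocyte markers 8 were measured, and their summed RPKM lay between 87704 and 122866 per liver. The RPKM of all transcripts together lay between 515781 and 577525 per liver. In bulk liver, fewer cells of a type and less RNA per cell cannot be told apart.

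Of the 55 genes, 9 were lower in EtOH livers and 1 was higher, at an adjusted p below 0.05 from limma over all 21718 transcripts, and 45 did not pass. Those that fell were Gsta1, Gsta2, GSTA5_RAT, Gstm1, Gstm2, Gstm4, Gstp1, Txnrd1 and Txndc9, and the riser was Txnip. Of all transcripts tested, 2.42% were called, 1.29% lower and 1.13% higher. Among the more abundant transcripts, those whose mean RPKM reached 1, which held 50 of the 55 genes and all 10 that were called, 4.47% were called and 2.35% were called lower. The median log2 difference, EtOH minus control, was -0.13 over the 55 genes and 0.00019 over all transcripts, and it was -0.15 over the 50 genes at that level against 0.0078 over all transcripts there. The members' difference lay below 0 in 36 genes and above 0 in 19.

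All 6 EtOH livers lay below all 6 control livers in 11 of the 55 genes, where 2.43% of all transcripts did so, and above them in 1, where 0.677% of all transcripts did so. The 11 were the 9 that fell in the test and Gsr and Nqo1. These shares include many scarce transcripts. Of the 11086 whose mean RPKM reached 1, 518 lay lower without overlap and 120 lay higher. The 50 genes at that level held all 11 that lay lower and the 1 that lay higher. The summed RPKM of the 55 genes was 8512 to 11524 per control liver and 7487 to 7966 per EtOH liver, so that these groups did not overlap either. Nor did the RPKM of all transcripts together, at 535264 to 577525 in control and 515781 to 532901 in EtOH livers. Separation of a sum as deposited is therefore not particular to these genes. As a share of all RPKM in a liver, the genes took 1.79% ± 0.19 in control livers and 1.45% ± 0.03 in EtOH livers (SD, n = 6 each).

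**Figure D1:**
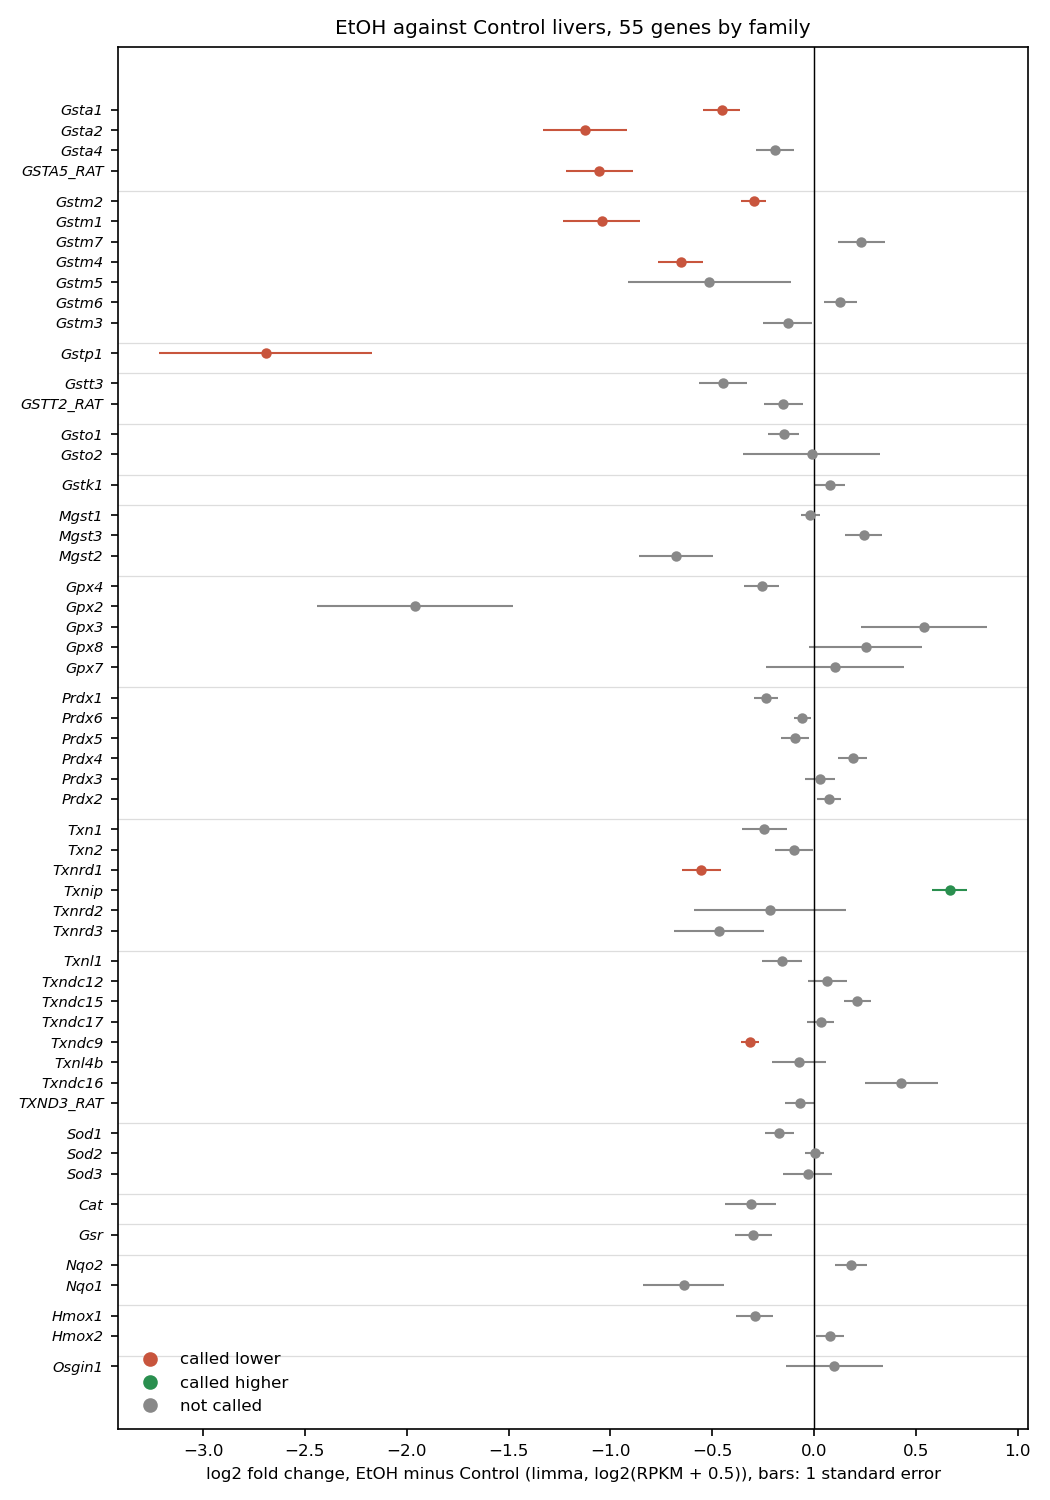
Log2 difference (EtOH minus control, limma on quantile-normalized log2(RPKM + 0.5)) of each of the 55 genes, grouped by family, with 1 standard error on each side, from 6 EtOH and 6 control livers. The 9 genes that fell are in red, most of them alpha and mu class transferases, the single gene that rose, Txnip, is in green, and the 45 that did not pass the test are in grey.

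Glutathione transferases held 7 of the 9 genes that fell. Of the 20 transferases measured, the microsomal ones included, 7 were called lower and none higher, and their median log2 difference was -0.24. Of the 35 other genes 2 were called lower and 1 higher, with a median of -0.07. Over all transcripts tested, 1.29% were called lower and 1.13% higher. The summed RPKM of the transferases was 5147 to 7392 in control livers and 4369 to 4951 in EtOH livers, and that of the 35 other genes was 3365 to 4132 and 2983 to 3190, so neither sum overlapped between the groups. The RPKM of all transcripts together did not overlap either.

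The largest difference of the 55 genes was in the pi class. Gstp1, the pi class transferase, which adult rat hepatocytes normally express little and preneoplastic foci express strongly, had 54.5, 479, 376, 179.5, 139 and 39.0 RPKM in control animals 1 to 6 and 28.4, 21.0, 22.1, 16.0, 18.9 and 16.7 RPKM in EtOH animals 1 to 6. The EtOH livers sat together below the lowest control, while the controls themselves ran over a 12.3-fold range. Mean RPKM was 10.3-fold lower in EtOH livers, and the log2 difference was -2.69 (standard error 0.52, adjusted p = 0.0229 from limma). Among the 3817 transcripts whose mean RPKM reached 10, only 30 (0.786%) had a ratio of highest to lowest control as large as that of Gstp1, and the median ratio was 1.42. The call was lost without control animal 4 (adjusted p = 0.0505 from limma) and without EtOH animal 2 (0.0522), on the square-root scale (0.0668, and 0.12 with a pooled error term) and with voom on the recovered reads (0.0537), while the log2 difference stayed between -3.05 and -2.35 with any single liver left out.

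The alpha class, the most abundant cytosolic transferases of liver, fell in 3 of its 4 measured genes, and Gsta4 lay at 144 ± 27.7 RPKM in control and 111 ± 7.58 RPKM in EtOH livers (SD, n = 6 each, adjusted p = 0.36 from limma). Gsta1, whose product conjugates many electrophiles and also reduces lipid peroxides, had 868, 1162, 1114, 996, 1011 and 832 RPKM in the control livers and 673, 649, 777, 725, 818 and 794 RPKM in the EtOH livers. The groups were adjacent without overlap, 832 against 818 at their nearest. The log2 difference was -0.45 (standard error 0.09, adjusted p = 0.0235 from limma). Gsta2 had 230.2, 581, 557, 374, 360.2 and 223 RPKM in the controls and 148, 132, 134, 153, 201 and 144 RPKM in the EtOH animals. Control animals 2 and 3 stood high and 1 and 6 low, as they did for Gstp1. Mean RPKM was 2.55-fold lower in EtOH livers, with a log2 difference of -1.12 (standard error 0.21, adjusted p = 0.0183 from limma).

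GSTA5_RAT, the table's name for a further alpha class transcript, had 121, 214, 202, 155, 148 and 106 RPKM in the controls and 69.0, 55.3, 69.1, 56.3, 92.8 and 56.8 RPKM in the EtOH livers. The lowest control was again above the highest EtOH liver. Its mean was 2.37-fold lower in EtOH livers, with a log2 difference of -1.05 (standard error 0.16, adjusted p = 0.00784 from limma). Together the 4 measured alpha class genes, which do not include Gsta3, summed to 1305 to 2146 RPKM per control liver and 941 to 1232 per EtOH liver. As the authors list them, Gsta1 and GSTA5_RAT lie side by side on chromosome 9 between 20018304 and 20068146, and Gsta2 and Gsta4 on chromosome 8 between 83165139 and 83315635. Alpha class transcripts resemble each other closely, and no source read here tells how their shared reads were assigned, so the split between them is uncertain. The call of Gsta1 was lost without control animal 2 (adjusted p = 0.0521), control animal 4 (0.0508) or EtOH animal 2 (0.0581), with median-ratio scaling between livers (0.0583) and with the pooled-error test on square-root values (0.0522), and that test also ended the call of Gsta2 (0.064).

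**Figure D2:**
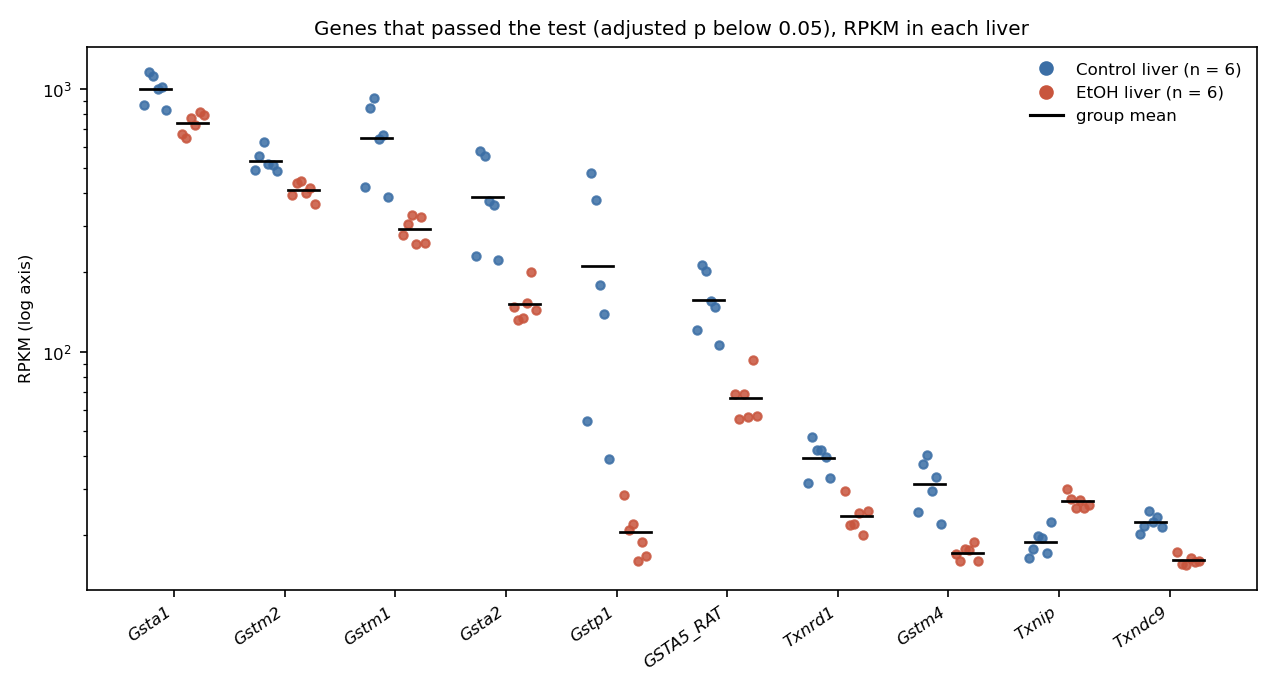
RPKM as deposited, on a log axis, of the 10 genes that passed the test, in each of 6 control livers (blue) and 6 EtOH livers (red), shown left to right by animal number, with a line at each group mean. In 9 genes every EtOH liver lies below every control liver and in Txnip every EtOH liver lies above, and the control points of Gstp1 spread from 39.0 to 479 RPKM while the EtOH points lie between 16.0 and 28.4.

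The mu class, a tandem cluster of genes that the authors list on chromosome 2 between 203456122 and 203610817, fell in 3 of 7 measured genes. Gstm1, the prototype mu class enzyme, had 422, 843, 922, 642, 667 and 389 RPKM in the control livers and 278, 305, 332, 257, 324 and 259.7 RPKM in the EtOH livers. Controls 2 and 3 were the highest here too, and all EtOH livers were below the lowest control. Mean RPKM was 2.21-fold lower in EtOH livers, with a log2 difference of -1.04 (standard error 0.19, adjusted p = 0.0174 from limma). Gstm4 had 24.5, 37.5, 40.5, 29.5, 33.4 and 22.1 RPKM in controls and 17.0, 16.0, 17.7, 17.6, 18.9 and 15.9 RPKM in EtOH animals. The EtOH livers lay close together, and the log2 difference was -0.66 (standard error 0.11, adjusted p = 0.0129 from limma).

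Gstm2, a mu class enzyme about as abundant as Gstm1, had 490.5, 555, 629, 515, 512 and 488 RPKM in the controls and 394, 438, 447, 402, 418 and 364 RPKM in the EtOH livers. Its change was the smallest of the transferases that fell, a log2 difference of -0.30 (standard error 0.06, adjusted p = 0.03 from limma). The other mu class genes differed in level and did not pass the test. Gstm7 lay at 36.5 ± 4.71 RPKM in control and 38.8 ± 6.69 in EtOH livers (SD, n = 6 each), with a log2 difference of 0.23, and Gstm5 lay at 2.09 ± 0.939 and 1.45 ± 1.08 RPKM. Gstm3 and Gstm6 rested on 1 and 2 recovered reads in all livers together, the smallest counts that fit their values. The mu class summed to 931 to 1637 RPKM per control liver and 684 to 833 per EtOH liver.

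A further listed transcript of Gstm1, with 142 reads in all, had a log2 difference of -1.97 (adjusted p = 0.0551 from limma). Reads that fit several mu class genes could have been split between them, so single values of this cluster are uncertain in the same way as those of the alpha class. Gstm2 lost its call without any of control animals 2 (adjusted p = 0.0639), 3 (0.0517) and 4 (0.0618) and EtOH animals 1 (0.0579), 4 (0.0566) and 5 (0.057), with median-ratio scaling (0.0865), without the mean-variance trend (0.061) and with voom (0.056). Gstm1 lost its call with the pooled-error test on square-root values (0.0536).

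The theta, omega, kappa and microsomal transferases gave no calls among their 8 genes. Gstt3, of the theta class, had 323, 484, 519.9, 368, 434 and 304 RPKM in control and 235, 241, 259.5, 255, 357 and 305 RPKM in EtOH livers. EtOH animals 5 and 6 reached into the control range, and the log2 difference was -0.45 (standard error 0.12, adjusted p = 0.0752 from limma). It passed without control animal 6 (0.0386), without EtOH animal 5 (0.0397) and when transcripts with a mean RPKM under 1 were left out (0.0354), and of its less abundant transcripts, Gstt3.2 passed on its own (log2 difference -0.53, adjusted p = 0.0492) and Gstt3.3 did not (-0.33, adjusted p = 0.138). GSTT2_RAT lay at 45.5 ± 6.13 RPKM in control and 36.8 ± 5.63 in EtOH livers (SD, n = 6 each).

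Mgst1, a membrane-bound transferase of the endoplasmic reticulum and the outer mitochondrial membrane, was the most abundant of all 55 genes, at 2064, 2045, 2245, 2144, 2068 and 2119 RPKM in control and 1992, 2139.8, 2066, 1910.0, 2063 and 2030.5 RPKM in EtOH livers. It varied little within either group, with a coefficient of variation of 3.50% in control and 3.82% in EtOH livers. Its log2 difference was -0.02 (standard error 0.05, adjusted p = 0.882 from limma), and the sign turned with median-ratio scaling (0.036) and reached 0 without EtOH animal 4. Mgst2, which also makes leukotriene C4, lay at 51.7 to 131 RPKM in control and 37.4 to 55.9 RPKM in EtOH livers, with a log2 difference of -0.68 (adjusted p = 0.0766). Mgst3 had a log2 difference of 0.24 (adjusted p = 0.21).

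Gsto1, the omega class enzyme that reduces dehydroascorbate and methylated arsenic, had 71.7, 95.7, 106, 88.6, 91.7 and 94.9 RPKM in control and 64.5, 79.7, 72.2, 73.9, 80.5 and 72.5 RPKM in EtOH livers. Only control animal 1 fell within the EtOH range, and the log2 difference after normalization between livers was -0.15 (standard error 0.08, adjusted p = 0.4 from limma). Gstk1, the kappa class enzyme of mitochondria and peroxisomes, had 188, 202, 234, 180.1, 180.3 and 205 RPKM in control and 189, 204, 162, 198, 209 and 176 RPKM in EtOH livers. Those groups overlapped throughout, with a log2 difference after normalization between livers of 0.08 (standard error 0.08, adjusted p = 0.651 from limma). Without normalization its sign turned (-0.06). Gsto2 reached at most 1.26 RPKM in any liver.

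**Figure D3:**
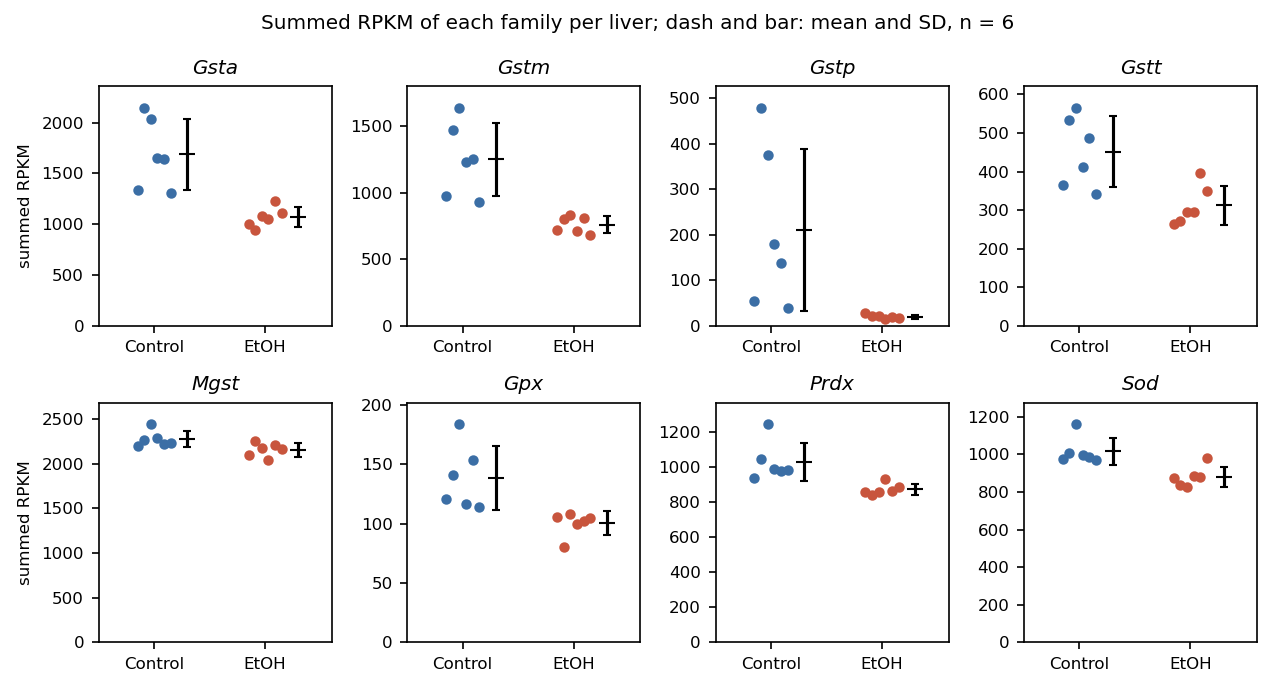
Summed RPKM per liver, on linear axes that start at 0, of the alpha (Gsta), mu (Gstm), pi (Gstp), theta (Gstt) and microsomal (Mgst) transferases, the glutathione peroxidases (Gpx), the peroxiredoxins (Prdx) and the superoxide dismutases (Sod), with the mean and SD of 6 livers beside the points. The Gsta, Gstm, Gstp, Gpx and Prdx sums do not overlap between the groups, and neither does the RPKM of all transcripts together. The Gstt, Mgst and Sod sums do overlap, Mgst at 2201 to 2439 RPKM in control and 2035 to 2258 RPKM in EtOH livers.

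None of the 5 glutathione peroxidases passed the test. Gpx4, which reduces lipid hydroperoxides within membranes, was the most abundant of the 5, with 113, 124, 162, 107, 139 and 102 RPKM in control and 93.6, 75.5, 102, 89.1, 95.5 and 101 RPKM in EtOH livers. The lowest control touched the EtOH range, and the log2 difference was -0.26 (standard error 0.09, adjusted p = 0.16 from limma). Gpx2, the gastrointestinal peroxidase, was low, at 3.00 to 18.1 RPKM in control and 0.386 to 5.36 RPKM in EtOH livers. Its log2 difference of -1.96 was exceeded in size only by that of Gstp1 among the 55 genes, with a standard error of 0.48 and an adjusted p of 0.0552 from limma. Gpx3, Gpx7 and Gpx8 lay at means of 0.706 to 3.10 RPKM in either group and had log2 differences above 0, from 0.10 to 0.54. The main cytosolic peroxidase, Gpx1, is not analysed here.

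The 6 peroxiredoxins gave no call either. Prdx1, a cytosolic peroxidase that draws on thioredoxin, had 488, 559, 671, 536, 511 and 543 RPKM in control and 441, 414, 453, 493, 426 and 439 RPKM in EtOH livers. Only EtOH animal 4 overlapped the controls, and the log2 difference was -0.24 (standard error 0.06, adjusted p = 0.0553 from limma). It passed without control animal 5 (0.0477), without EtOH animal 4 (0.0445), without normalization between livers (0.0432), with limma on square-root values (0.0483) and when transcripts under a mean RPKM of 0.1 (0.0384) or 1 (0.025) were left out. The log2 differences of Prdx2 to Prdx6 lay between -0.09 and 0.19.

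The thioredoxin system held a fall and a rise. Txnrd1, the cytosolic selenoenzyme that reduces thioredoxin with NADPH, had 31.7, 47.3, 42.1, 42.4, 39.8 and 33.1 RPKM in control and 29.6, 21.8, 22.0, 24.2, 20.0 and 24.6 RPKM in EtOH livers. EtOH animal 1 came closest to the controls without reaching them. The log2 difference was -0.55 (standard error 0.10, adjusted p = 0.0152 from limma). Txnip, which binds reduced thioredoxin and inhibits it, and which also limits glucose uptake, had 16.5, 17.7, 19.8, 19.5, 17.1 and 22.4 RPKM in control and 30.0, 27.5, 25.5, 27.3, 25.5 and 26.1 RPKM in EtOH livers. Every EtOH liver was above every control, and mean RPKM was 1.43-fold higher. Its log2 difference of 0.67 (standard error 0.09, adjusted p = 0.00293 from limma) had the smallest p of the 55 genes.

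Thioredoxin itself, Txn1, had 187, 242, 269, 199, 166 and 173 RPKM in control and 149, 109, 158, 164, 173 and 191 RPKM in EtOH livers. The groups overlapped, with a log2 difference of -0.24 (standard error 0.11, adjusted p = 0.312 from limma). The mitochondrial Txn2 lay at 85.2 ± 16.4 RPKM in control and 70.9 ± 8.21 in EtOH livers (SD, n = 6 each), and the less abundant reductases Txnrd2 and Txnrd3 at means of 1.51 to 5.73 RPKM. None of these 3 passed the test.

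Txndc9, a thioredoxin domain protein that binds the chaperonin which folds actin and tubulin, had 20.2, 21.7, 24.8, 22.4, 23.5 and 21.6 RPKM in control and 17.2, 15.6, 15.4, 16.3, 15.8 and 16.0 RPKM in EtOH livers. Both groups were tight and did not overlap, and the log2 difference was -0.31 (standard error 0.05, adjusted p = 0.00551 from limma). The rule takes Txndc9 by its name, while its known role is outside the removal of oxidants. Txnl1, a redox-active thioredoxin-like protein that associates with the proteasome, had 58.1, 66.1, 60.9, 66.8, 53.6 and 53.4 RPKM in control and 62.2, 41.6, 50.2, 45.7, 46.5 and 42.9 RPKM in EtOH livers. EtOH animal 1 stood within the control range, apart from the other 5, and the log2 difference was -0.16 (standard error 0.10, adjusted p = 0.493 from limma). The remaining thioredoxin domain and thioredoxin-like genes, Txndc12, Txndc15, Txndc16, Txndc17, Txnl4b and TXND3_RAT, had log2 differences between -0.07 and 0.43 and did not pass the test. TXND3_RAT was above 0 in 1 liver only, with 1 recovered read, the smallest count that fits its value.

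Superoxide dismutases and catalase, the enzymes that act directly on superoxide and hydrogen peroxide, did not pass the test. Sod1, the copper and zinc enzyme of the cytosol, had 911, 934, 1089, 934, 916 and 906 RPKM in control and 812, 781, 771, 827, 814 and 917 RPKM in EtOH livers. EtOH animal 6 overlapped the controls, and the log2 difference was -0.17 (standard error 0.07, adjusted p = 0.268 from limma). The mitochondrial Sod2 and the extracellular Sod3 had log2 differences of 0.0032 and -0.03. Cat, peroxisomal catalase, which can itself oxidize ethanol, had 840.1, 958, 666, 948, 819.7 and 633 RPKM in control and 696, 675, 661, 592, 537 and 599 RPKM in EtOH livers. Control animals 3 and 6 fell among the EtOH livers, and the log2 difference was -0.31 (standard error 0.12, adjusted p = 0.239 from limma).

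Gsr, glutathione reductase, had 34.2, 57.0, 47.1, 42.4, 44.0 and 36.1 RPKM in control and 33.1, 31.2, 31.1, 32.8, 27.9 and 30.1 RPKM in EtOH livers. The groups did not overlap as deposited, yet the log2 difference after normalization between livers was -0.30 (standard error 0.09, adjusted p = 0.12 in the limma fit), and it was -0.46 (0.0341) with none. Nqo1, a quinone reductase much used as a readout of NRF2, had 13.7, 22.9, 30.7, 15.7, 18.4 and 17.8 RPKM in control and 12.5, 13.5, 11.5, 8.79, 13.5 and 7.29 RPKM in EtOH livers. Control animal 1 lay just above the highest EtOH liver, with a log2 difference of -0.64 (standard error 0.20, adjusted p = 0.124 from limma), or -0.79 without normalization between livers (0.0465). Nqo2, a related reductase that does not use NADPH, had 30.0, 34.8, 29.5, 28.2, 32.4 and 28.6 RPKM in control and 26.1, 28.0, 33.0, 32.9, 34.5 and 33.6 RPKM in EtOH livers. These groups overlapped, with a log2 difference of 0.18 (standard error 0.08, adjusted p = 0.278 from limma).

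Hmox1, the inducible heme oxygenase, had 20.5, 25.8, 29.5, 24.1, 20.1 and 18.6 RPKM in control and 16.5, 15.4, 15.6, 15.6, 17.4 and 19.6 RPKM in EtOH livers. Only EtOH animal 6 reached above the lowest control, and the log2 difference was -0.29 (standard error 0.09, adjusted p = 0.124 from limma), or -0.44 without normalization between livers (0.0433). The constitutive Hmox2 lay at 17.8 ± 2.30 RPKM in control and 16.8 ± 0.904 in EtOH livers (SD, n = 6 each). Osgin1, an oxidative stress-induced growth inhibitor, had 22.9, 55.4, 61.6, 39.2, 41.4 and 53.0 RPKM in control and 40.6, 59.8, 51.3, 33.4, 39.5 and 29.4 RPKM in EtOH livers. It varied widely in both groups, with a log2 difference of 0.10 (standard error 0.24, adjusted p = 0.869 from limma), the sign of which turned without normalization (-0.08), without control animal 1 (-0.07) and without EtOH animal 2 (-0.02).

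**Figure D4:**
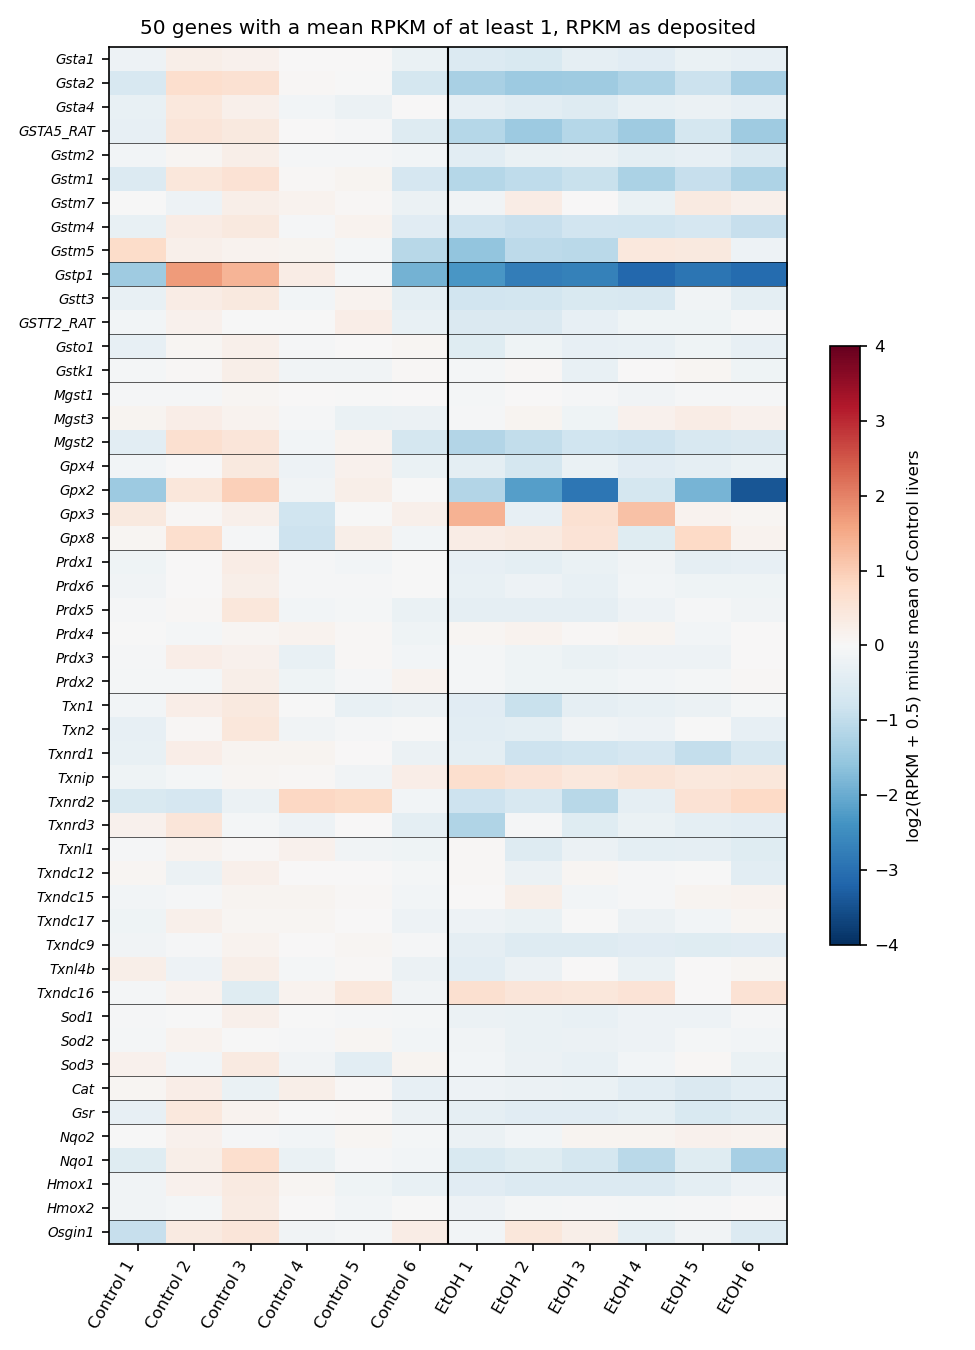
Log2(RPKM + 0.5) as deposited, without normalization between livers, of the 50 genes with a mean RPKM of at least 1 (rows, by family) in each of the 12 livers (columns), minus the mean of the 6 control livers. The strongest blue is in Gstp1 and Gpx2 of the EtOH livers, and Gsta2, GSTA5_RAT, Gstm1, Gstm4 and Gstp1 are bluer than the control mean in control animals 1 and 6 and redder in 2 and 3.

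Control livers differed among themselves in many of these genes, a pattern noticed after the values were seen and given as a description. Control animals 2 and 3 were the highest of the 6 controls in 7 of the 9 genes that fell, and in 24 of the 50 genes with a mean RPKM of at least 1 (48.0%), where 9.96% of all 11086 transcripts at that level had these animals highest. The lowest control was animal 1 or 6 in 9 of 9 genes that fell and in 40.8% of all such transcripts. Over the 42 genes with a mean RPKM of at least 10, the median coefficient of variation was 13.9% in control and 9.60% in EtOH livers, and it was larger in controls in 35 of them (83.3%), against medians of 13.2% and 11.0%, and 65.0% larger in controls, over all 3817 transcripts at that level. In the 9 genes that fell, the medians were 23.1% and 11.1%.

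Further genes of the glutathione and NRF2 pathways were read from lists of named genes. These lists were chosen with earlier results of these data known. Of 19 measured NRF2 targets outside the 55 genes, 8 were called lower and none higher, with a median log2 difference of -0.61. Of all transcripts 1.29% were called lower, and 2.35% of those whose mean RPKM reached 1. In all 8 every EtOH liver lay below every control, where 2.43% of all transcripts did so. The 8 were picked by the test on the same values, so this adds no separate support. Gclc and Gclm encode the catalytic and modifier subunits of the rate-limiting enzyme of glutathione synthesis. Gclc had 37.8, 45.9, 42.1, 41.0, 34.6 and 37.2 RPKM in control and 30.3, 23.3, 22.0, 24.1, 20.7 and 18.6 RPKM in EtOH livers (log2 difference -0.61, standard error 0.11, adjusted p = 0.0177 from limma). Gclm had 39.3, 67.3, 52.9, 57.6, 50.7 and 31.8 RPKM in control and 31.2, 29.6, 25.9, 24.9, 26.5 and 27.5 RPKM in EtOH livers (log2 difference -0.64, standard error 0.14, adjusted p = 0.0341). These were the 2 calls among 11 measured genes of glutathione synthesis and turnover, whose median was -0.11.

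Among the other NRF2 targets, Akr1b8, an aldo-keto reductase that reduces lipid aldehydes, had 8.02, 78.7, 33.3, 23.3, 24.5 and 18.0 RPKM in control and 4.08, 3.24, 3.03, 3.12, 3.28 and 3.59 RPKM in EtOH livers (log2 difference -2.58, adjusted p = 0.00567 from limma). Akr7a3, an aflatoxin aldehyde reductase, had 31.1, 134, 152, 82.0, 68.1 and 36.4 RPKM in control and 13.6, 17.5, 17.6, 17.6, 18.8 and 11.2 RPKM in EtOH livers (-1.98, adjusted p = 0.0132). Both were, as Gstp1 was, high and uneven in the controls and low in every EtOH liver. Me1, the cytosolic malic enzyme that yields NADPH, fell from 32.7 ± 9.92 to 10.8 ± 2.84 RPKM (SD, n = 6 each), with a log2 difference of -1.40 (adjusted p = 0.00393 from limma). Abcc4, an export pump for conjugates, fell from 3.66 ± 1.05 to 1.14 ± 0.432 RPKM (-1.32, adjusted p = 0.0066), and Pir, an iron-dependent nuclear protein, from 6.15 ± 1.96 to 1.68 ± 0.687 RPKM (-1.58, adjusted p = 0.0132). The eighth call, that of the epoxide hydrolase Ephx1, had an adjusted p of 0.0292.

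Neither NRF2 (Nfe2l2) nor its repressor Keap1 passed the test, nor did the other 7 measured regulators. Nfe2l2 lay at 57.1 ± 3.12 RPKM in control and 46.2 ± 5.97 in EtOH livers (log2 difference -0.15, adjusted p = 0.507 from limma) and Keap1 at 21.3 ± 3.47 and 14.8 ± 1.52 RPKM (-0.35, adjusted p = 0.0772). Of 9 measured genes that supply NADPH, Me1 fell and Nnt, the mitochondrial transhydrogenase, rose from 32.7 ± 3.50 to 39.8 ± 1.44 RPKM (0.44, adjusted p = 0.0129). No call was made among 14 measured genes of selenoprotein synthesis and other selenoproteins, 13 of other thiol repair and 14 sources of reactive oxygen. Their median log2 differences were -0.04, -0.0024 and 0.09. Of the 14 sources, 4 had a log2 difference below 0. The source Cyp2e1 lay at 2187 ± 214 RPKM in control and 2731 ± 208 in EtOH livers, and the groups overlapped. Its log2 difference was 0.34 (adjusted p = 0.0718 from limma). By qRT-PCR, the paper reports higher Cyp2e1 expression in the drinking animals. Of 11 measured targets of the nuclear receptors CAR and PXR, Ugt2b1, a glucuronosyltransferase, fell (-0.71, adjusted p = 0.0311) and Nr1i2, which encodes PXR itself, rose (0.34, adjusted p = 0.0443).

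Markers of other liver cells moved beside these genes in part, mostly upward. Of 9 measured Kupffer cell markers, 3 rose (Cd163, Clec4f and Vsig4) and their sum was 195.5 to 301.5 RPKM in control and 258 to 318 RPKM in EtOH livers. Of 9 stellate cell markers Col1a2 and Col3a1 rose, with sums of 27.1 to 38.5 and 34.7 to 56.5 RPKM, and of 5 endothelial markers Cdh5 rose, with sums of 27.4 to 37.9 and 33.1 to 44.7 RPKM. No measured Kupffer, stellate or endothelial marker had a log2 difference below 0, and the medians were 0.42, 0.44 and 0.33. Among all transcripts, 1.13% were called higher. Of the 6 cholangiocyte markers 4 lay below 0, with a median of -0.04. None of 6 cholangiocyte markers passed, with sums of 11.2 to 19.4 RPKM in control and 7.12 to 17.3 RPKM in EtOH livers, of which Krt19, a defining marker, lay at means of 1.49 and 1.67 RPKM. None of 7 erythroid markers passed, with sums of 346 to 758 and 492 to 819 RPKM. Of 9 neutrophil markers 4 (Mpo, Ltf, Elane and Mmp8) were listed at 0 in every liver and none of the other 5 passed, with sums of 1.00 to 2.82 and 0.354 to 3.74 RPKM. Of 8 hepatocyte markers Cps1 rose. The most abundant of these, such as Alb and Tf, are given nearly the same value in every liver by quantile normalization, so the test cannot show a change in them. The part of these cells in the differences of the transferases was not tested.

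Normalization between livers changed how many genes passed. The 9 lower and 1 higher became 7 and 1 with median-ratio scaling and 15 and 1 with none, when Gpx2, Gsr, Hmox1, Mgst2, Nqo1 and Prdx1 were called lower too. Over all transcripts, 53.4% of calls were lower with quantile normalization, 63.5% with median-ratio scaling and 83.7% with none. GSTA5_RAT, Gstm4 and Txnip passed under every alternative tried, each liver left out in turn included.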

How the data were processed

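Poly(A) RNA of 12 rat livers was sequenced, 1 library per animal, barcoded and pooled in a single lane. The authors used CLCbio Genomics Workbench 4.9 to map paired-end reads of 101 nucleotides, and deposited RPKM values for 34391 transcripts. The genome build, the strand setting and the handling of reads shared by several genes are not given in the sources used here. Positions are those of the deposited table. Columns that hold the authors' own comparison (fold change, its statistic, p-value, FDR) were not used. Samples were grouped by their labels as water control or ethanol.

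Transcripts above 0 in at least 1 liver (21718) were compared as quantile-normalized log2(RPKM + 0.5) with limma 3.58.1 in R 4.3.3, using a mean-variance trend, two-sided, with Benjamini-Hochberg adjustment over all of them and a threshold of 0.05, so every adjusted p is from limma unless another test is named. Because of the pseudocount of 0.5, log2 differences understate the change of low genes, and fold values given as such are ratios of mean RPKM as deposited. Quantile normalization aligned the livers to a common distribution, so a shift shared by most transcripts would not be seen. Whole reads were recovered for 21718 transcripts within 0.01 read, as the smallest whole numbers that fit the ratios between livers. For the 2052 transcripts above 0 in only 1 liver, Gstm3 and TXND3_RAT among them, this always gives 1 read. Their true count is not known. The procedure was tested on simulated reads, drawn independently for each liver with the same dispersion setting for every transcript. That test does not cover controls as uneven as those of Gstp1. All other steps used Python 3.11.15, pandas 2.3.3 and numpy 2.4.6, and RefSeq promoter windows are of GRCr8.

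The members and gene lists were chosen with earlier results of these data known. Values in every liver are given for each member that passed the test, had no overlap between groups or was the most abundant of its family, and for called genes of the other lists, at most 6 per list by smallest p. The animals are separate, and the limma p-values set the difference between groups against the variation between animals. The variance of each transcript was moderated across all transcripts.

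Alternatives were pseudocounts of 0.1 and 1, no normalization or median-ratio scaling between livers, limma and an unmoderated pooled-error test on square-root values (the test the paper's methods name), minimum mean RPKM of 0.1 or 1, no trend, a replicate block, voom on recovered reads, all listed transcripts of each gene, the Txndc and Txnl genes left out, and each liver left out in turn. Same-numbered animals of the groups were checked for a shared deviation, and their correlations ran from -0.067 to 0.032.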

Additional observations from a re-analysis of the deposited data

Results flagged for a closer look

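In 3 of 50 groups of 6 livers, 1 liver stood apart from the others by Dixon's test, where chance gives about 1 in 20. EtOH animal 5 was the highest EtOH liver for Gsta2, at 201.2 RPKM with the next at 153.3 (gap over range 0.691), and for GSTA5_RAT, at 92.79 RPKM with the next at 69.07 (0.633). Without EtOH animal 5 both genes kept their calls. Control animal 3 was the highest control for Sod1, at 1089 RPKM with the next at 933.9 (0.847).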

How the results depend on the processing

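The number of the 55 genes that passed the test rose from 10 to 16, and those lower from 9 to 15, without normalization between livers. It fell to 6, with 5 lower, in the pooled-error test on square-root values, and to 4, with 3 lower, with a replicate block, although the animal numbers did not mark pairs (1 of 6 animals correlated best with its own number). Under the block the calls of Gsta1 (adjusted p = 0.0921 from limma), Gsta2 (0.0716), Gstm2 (0.0659), Gstp1 (0.0672), Txnrd1 (0.0887) and Txndc9 (0.0829) were lost. The cause was not tested. With 1 liver left out, 7 to 12 genes passed and 6 to 11 were lower, the fewest without control animal 4 and the most without control animal 6. Under the other alternatives the count lay between 8 and 14. Over 25 genes given with values, 575 combinations of gene and alternative were run, of which 530 kept call and direction, 27 lost the call, 12 gained it and 6 changed sign, none of the latter in a gene that had passed. The sign changes were of Gstk1 without normalization (-0.0637), of Mgst1 with median-ratio scaling (0.036) and of Osgin1 without normalization (-0.0785). With 1 liver left out, Mgst1 ranged from -0.0292 to 0 and Osgin1 from -0.0704 to 0.2108. Genes without overlap between groups numbered 12 as deposited, 10 after quantile normalization and 8 after median-ratio scaling. Gstm3, Gstm6 and TXND3_RAT rested on 1 or 2 recovered reads, the smallest counts that fit their values, and a difference in them was not detectable at this depth.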
